A study of Mus musculus with 18 samples.

Results

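Integrin receptor subunits are described here in mESCs, that is mouse embryonic stem cells, of the established line E14 (labelled 129m wt). They comprise the 10 genes Itga3, Itga5, Itga6, Itga7, Itga9, Itgav, Itgb1, Itgb3, Itgb4 and Itgb5 and were chosen by name among the 46078 genes of the count table. All 10 were matched by their Ensembl identifier, and all 10 passed the filter on low counts that left 13438 protein-coding genes for testing. Another 17 integrin subunit genes were kept as a separate list.

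All cells were wild type and were held for 24 h in serum with LIF, a cytokine that keeps mESCs undifferentiated, on fibronectin-coated StemBond hydrogels. In these polyacrylamide gels the amount of AHA, a linker monomer, sets how firmly matrix protein is tethered. The 6 substrates had a stiffness near 750 Pa (soft) or 160 kPa (stiff), and at each stiffness AHA was 16 mM (called low), 48 mM (mid) and 80 mM (high), with 3 libraries per substrate. All groups share the medium, the cell line and the fibronectin coat, and the labels do not say whether the 3 samples of a group were separate cultures, so p-values measure only the spread between these samples.

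Integrins are paired membrane receptors, each made of 1 alpha and 1 beta chain, that bind extracellular matrix outside the cell and couple to the actin cytoskeleton inside it. The alpha chain largely sets the ligand, and the beta tail binds talin and kindlin, which switch the receptor on. Itga5 paired with Itgb1 is the classical fibronectin receptor, and Itgav with Itgb1, Itgb3 or Itgb5 also binds the RGD sequence of fibronectin and vitronectin. Itga3, Itga6 and Itga7 are laminin-binding alpha chains, and Itga6 with Itgb4 builds hemidesmosomes, which anchor keratin filaments. Itga9 pairs with Itgb1 and binds tenascin and osteopontin.

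Gene counts per library ran from 5850621 to 9290261, of which 68.4 to 72.7% lay in protein-coding genes. The members held 6190 to 10590 counts per library. In 17 libraries the ERCC spike-in RNAs took 0.607 to 0.725% of counts, and in the soft, high AHA library replicate 1 they took 1.37%, so this library was left out of the tests (8 soft and 9 stiff libraries remained). Of the 8 embryonic stem cell markers, all passed the filter, and their summed level was 2669 to 2844 per 1000000 protein-coding counts in soft and 2440 to 2584 in stiff libraries, ranges that did not overlap. Summed markers of primitive endoderm (7 of 7 passing the filter) spanned 36.9 to 51.2 on soft and 37.3 to 48.8 on stiff substrates, those of trophoblast (5 of 6, without Elf5) 61.0 to 83.6 and 76.7 to 92.3, and those of neural and mesoderm progeny (4 of 6, without Neurog1 and Mesp1) 29.7 to 36.0 and 23.1 to 33.8. Fibroblast markers (4 of 7) summed to 114 to 195 on soft and 163 to 235 on stiff substrates, while the fibroblast genes Dcn, Lum and Fap had at most 4 counts in any library. The part of these marker levels in the results on integrins was not tested. In bulk RNA, fewer cells of a type and less RNA per cell cannot be told apart.

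The promoters of the 4 members that form the main fibronectin-binding pairs or carry the largest difference between substrates are shown first, because these genes were all lower on soft substrates below. RefSeq windows of GRCm38.p6, 250 bases before to 50 after the start site, matched 6 of 10 members with 7 entries (Itga3 has 2). Capitals mark GGGCGG, the GC box, or its reverse complement, and in Itgb1 also GGAATG, the TEAD motif. The windows are chr11:95076665-95076964 on the minus strand for Itga3, chr8:128685404-128685703 on the plus strand for Itgb1, chr15:103366742-103367041 on the minus strand for Itga5 and chr2:83724147-83724446 on the plus strand for Itgav.
Itga3: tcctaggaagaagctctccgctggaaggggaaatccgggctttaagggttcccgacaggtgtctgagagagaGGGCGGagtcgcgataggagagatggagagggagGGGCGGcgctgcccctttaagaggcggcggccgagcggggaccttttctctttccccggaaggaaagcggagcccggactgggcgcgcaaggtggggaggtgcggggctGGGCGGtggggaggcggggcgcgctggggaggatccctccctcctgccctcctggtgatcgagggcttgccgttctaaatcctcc
Itgb1: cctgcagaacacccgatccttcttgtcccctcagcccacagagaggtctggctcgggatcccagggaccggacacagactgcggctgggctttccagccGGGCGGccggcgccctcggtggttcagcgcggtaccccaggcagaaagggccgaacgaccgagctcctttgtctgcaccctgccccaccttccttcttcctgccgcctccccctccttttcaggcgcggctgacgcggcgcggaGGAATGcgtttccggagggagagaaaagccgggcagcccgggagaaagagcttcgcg
Itga5: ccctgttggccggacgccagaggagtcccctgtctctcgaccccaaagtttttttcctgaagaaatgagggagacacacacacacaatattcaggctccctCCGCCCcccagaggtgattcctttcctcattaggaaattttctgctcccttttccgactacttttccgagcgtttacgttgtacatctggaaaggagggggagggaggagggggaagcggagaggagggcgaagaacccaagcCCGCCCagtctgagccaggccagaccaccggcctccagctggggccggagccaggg
Itgav: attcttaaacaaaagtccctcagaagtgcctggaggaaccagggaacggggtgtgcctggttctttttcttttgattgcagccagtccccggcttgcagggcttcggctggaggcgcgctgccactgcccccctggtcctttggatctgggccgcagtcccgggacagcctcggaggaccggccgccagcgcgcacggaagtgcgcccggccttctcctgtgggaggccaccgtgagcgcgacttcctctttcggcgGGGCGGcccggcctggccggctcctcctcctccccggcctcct

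Motifs were searched on both strands in the 7 windows and in all 32851 promoter windows of the table. The GC box lay in 6 of the 7 windows, 3 times in the Itga3 window printed above, and in 35.7% of all promoters. GGAATG was matched only in Itgb1, with its first base at position -7, against 14.7% of all promoters. The AP-1 motif TGANTCA, where N is any base, was matched in Itga9 and in the second Itga3 window, and in 7.81% of all promoters. Both windows lie inside their genes. The Itga9 window is chr9:118711442-118711741, in a plus-strand gene that starts at 118606690. The second Itga3 window is chr11:95069149-95069448, in a minus-strand gene whose upper end is 95076801. The Itga3 window printed above had no AP-1 match, and no window at the gene start of Itga9 was among the 7. The CArG box, bound by serum response factor, was in none of the 7 windows and in 1.63% of all promoters. In the printed windows no matched motif overlapped another. A match describes the letters only.

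To compare subunits with each other, counts were scaled per kilobase of merged exons and per 1000000 protein-coding counts of the library. Itgb1, the chain most alpha subunits share, was the highest at 101 ± 10.6 (SD, n = 18), followed by Itga3 at 74.6 ± 15.5. Itga5 stood at 31.3 ± 2.80, Itga6 at 24.2 ± 1.66, Itgb5 at 22.2 ± 1.22 and Itgav at 10.0 ± 1.09 on this length-scaled level. The 4 lowest members were Itgb4 at 5.69 ± 0.725, Itgb3 at 4.52 ± 0.601, Itga9 at 2.56 ± 0.361 and Itga7 at 1.23 ± 0.210. Among neighbours in this order, only Itga6 and Itgb5 (22.0 to 24.9 and 21.1 to 24.3) and Itgb4 and Itgb3 (4.57 to 5.64 and 3.66 to 5.63) overlapped on soft substrates. On stiff substrates no neighbours in the order overlapped, with Itga6 at 23.6 to 27.0 against Itgb5 at 20.1 to 23.1. Merged exons hold every annotated isoform, so a gene with long, little-used exons is scaled too low.

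**Figure D1:**
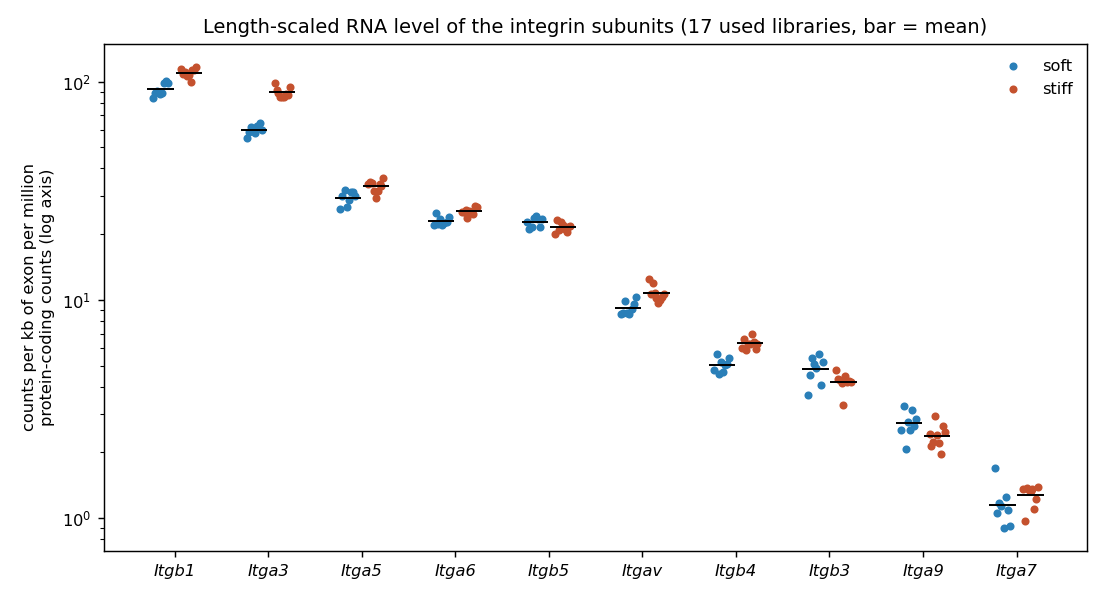
Length-scaled RNA level of each integrin subunit (log axis, counts per kb of exon per 1000000 protein-coding counts) in the 8 soft (blue) and 9 stiff (red) libraries, with bars at the means. Itgb1 and Itga3 lie above the other members on both stiffnesses, and Itga7 is lowest.

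Soft and stiff substrates were compared first as the average of the differences at the 3 AHA concentrations. On soft substrates 6 of the 10 members were lower (Itga3, Itgb4, Itgb1, Itgav, Itga5 and Itga6) and 0 were higher at an adjusted p under 0.05 (edgeR's quasi-likelihood test, Benjamini-Hochberg over all tested genes; 7 members had an unadjusted p under 0.05, and DESeq2 called 6). Across all 13438 genes, 4.82% were called lower and 3.77% higher, and 2750 had an unadjusted p under 0.05. DESeq2 called 913 of them in either direction. The median log2 fold change was -0.18 over the members and 0.00105 over all tested genes. Both laminin-binding and fibronectin-binding chains were among the 6.

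Itgb1 (ENSMUSG00000025809, GRCm38 chromosome 8, 128685654 to 128733200, plus strand) is the beta chain shared by Itga3, Itga5, Itga6, Itga7, Itga9 and Itgav. Levels are given as CPM, counts per 1000000 after TMM scaling of the tested genes. The soft libraries read 342, 360 and 367 CPM at low AHA, 355, 365 and 398 at mid AHA and 409 and 404 at high AHA. The stiff libraries read 470, 445 and 453 at low AHA, 438, 442 and 412 at mid AHA and 458, 464 and 479 at high AHA. All 8 soft libraries lay below all 9 stiff libraries. The library left out read 371 CPM, inside the soft range. The log2 fold change was -0.26 ± 0.026 (SE; adjusted p = 8.27e-15), or 1.19-fold lower on soft substrates.

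Itga3 (ENSMUSG00000001507; chromosome 11, 95044474 to 95076801, minus strand), which with Itgb1 binds laminins, showed the largest difference of the 10 members. On soft substrates its CPM was 315, 335 and 354 at low AHA, 337, 335 and 354 at mid AHA, and 371 and 343 at high AHA. On stiff substrates it was 562, 524 and 507 at low AHA, 492, 491 and 490 at mid AHA, and 501.9, 498 and 545 at high AHA. The gap between the ranges, with 371 as the highest soft and 490 as the lowest stiff library, was wider than the whole range of either group. Itga3 was 1.49-fold lower on soft substrates (log2 fold change -0.57 ± 0.027 SE, adjusted p = 3.10e-43).

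Itga5 (ENSMUSG00000000555; chromosome 15, 103344286 to 103366763, minus strand), the fibronectin-binding partner of Itgb1, differed less. Soft libraries read 127, 146 and 156 CPM at low AHA, 130, 142 and 152 at mid AHA, and 154 and 148 at high AHA. Stiff libraries read 168, 173 and 169 at low AHA, 158, 145 and 157 at mid AHA, and 168, 164 and 179 at high AHA. The groups overlapped through 1 stiff, mid AHA library at 145 CPM. On average Itga5 was 1.13-fold lower on soft substrates (log2 fold change -0.18 ± 0.037 SE, adjusted p = 0.00017).

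Itgav (ENSMUSG00000027087; chromosome 2, 83724397 to 83806916, plus strand), the alpha chain of the vitronectin and fibronectin receptors with Itgb1, Itgb3 and Itgb5, was 1.17-fold lower on soft substrates (log2 fold change -0.22 ± 0.042 SE, adjusted p = 2.81e-05). Its soft CPM was 91.7, 92.8 and 106 at low AHA, 93.0, 92.7 and 96.8 at mid AHA, and 103 and 111 at high AHA. Its stiff CPM was 134, 115 and 129 at low AHA, 116, 111 and 105 at mid AHA, and 108, 111 and 115 at high AHA. The soft and stiff libraries separated at low and mid AHA and overlapped at high AHA. At mid AHA the uncalled Itga7 and Itgb5 separated as well (adjusted p = 0.579 and 0.662). The share of all genes that separated at a single AHA concentration was not computed. Of its exon length, 5.90% lies opposite an exon of Gm13684, and whether counting used the strand was not given in the sources used here.

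The laminin-binding and hemidesmosome chains Itga6 and Itgb4 were also lower on soft substrates. Itga6 (ENSMUSG00000027111; chromosome 2, 71745616 to 71858416, plus strand) had a lowest, median and highest CPM of 198, 203 and 224 on soft and of 216, 231 and 245 on stiff substrates. The 2 groups overlapped between 216 and 224 CPM. The difference was 1.11-fold (log2 fold change -0.16 ± 0.032 SE, adjusted p = 0.000130). Itgb4 (ENSMUSG00000020758; chromosome 11, 115974709 to 116008412, plus strand) read 32.0, 35.3 and 39.4 CPM on soft and 41.7, 44.6 and 49.6 CPM on stiff substrates in the same order. These groups did not overlap. Itgb4 was 1.26-fold lower on soft substrates (log2 fold change -0.33 ± 0.066 SE, adjusted p = 0.000105), and 7.66% of its exon length lies opposite an exon of B230344G16Rik. Itga3, Itgb1 and Itgb4 were thus the 3 members whose soft libraries all lay below all stiff libraries, which held for 0.871% of all tested genes.

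The remaining 4 members were not called. Itgb5 (ENSMUSG00000022817; chromosome 16, 33829665 to 33949338), a beta chain that pairs with Itgav, had 80.5 ± 4.30 CPM (SD, n = 8) in soft libraries and 77.1 ± 3.79 (SD, n = 9) in stiff libraries. Its log2 fold change of 0.064 (95% interval -0.031 to 0.16, adjusted p = 0.500) excludes a fall as large as that of Itgb1. Itgb3 (ENSMUSG00000020689, chromosome 11, 104608000 to 104670476), another beta partner of Itgav beside Itgb1 and Itgb5, had 28.3 ± 3.98 CPM (SD, n = 8) in soft libraries and 25.1 ± 2.38 (SD, n = 9) in stiff libraries. Its log2 fold change was 0.17 (interval 0.0054 to 0.33, adjusted p = 0.223), and 0.11 without soft, high AHA replicate 3 (adjusted p = 0.587). Itga9 (ENSMUSG00000039115; chromosome 9, 118606690 to 118901003) gave a log2 fold change of 0.19 with an interval of -0.00087 to 0.37 (adjusted p = 0.247). Itga7 (ENSMUSG00000025348, chromosome 10, 128933818 to 128958282), known best from muscle, gave -0.19 with an interval of -0.45 to 0.073 (adjusted p = 0.458). Over the alternatives it ran from -0.26 to -0.070, with -0.11 when all 18 libraries were used. Itga7 rested on 32 to 70 counts per library and Itga9 on 67 to 145, against 1706 to 2985 for Itgb1. The SEs of Itga7 and Itga9 were 0.13 and 0.095, against 0.026 for Itgb1. Whether depth kept these members from being called was not tested.

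**Figure D2:**
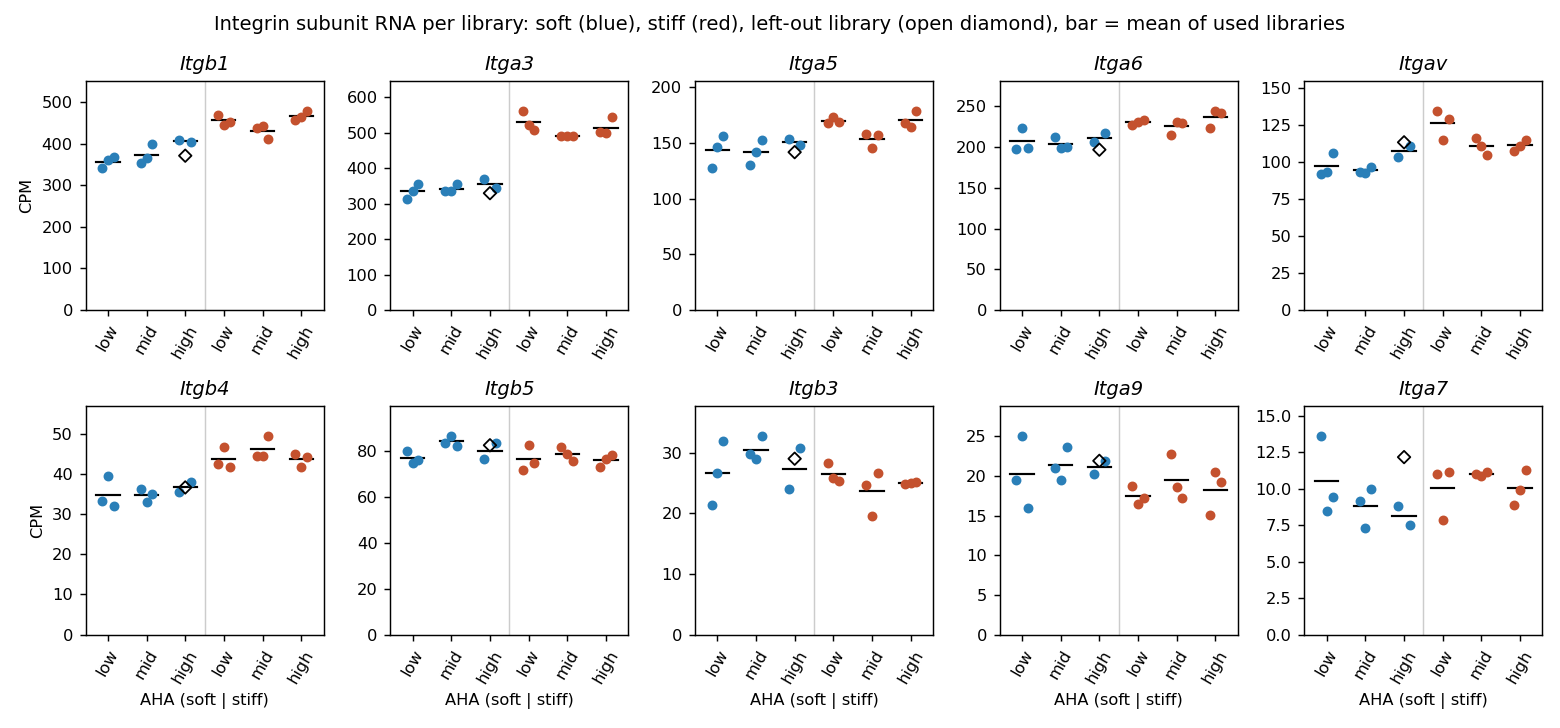
CPM of each integrin subunit in every library, by substrate, with soft libraries in blue, stiff in red, the left-out soft, high AHA library as an open diamond and bars at the group means of used libraries (each panel starts at 0). For Itgb1, Itga3 and Itgb4 all soft libraries used lie below all stiff libraries.

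Each AHA concentration was then taken alone, to ask at which tethering strength the difference was seen. At low AHA, 4 members were lower on soft substrates (Itga3, Itgav, Itgb1 and Itga5), against 2.19% of all genes. At mid AHA, 3 were lower (Itga3, Itgb4 and Itgb1; 1.85% of all genes), and at high AHA 2 were (Itga3 and Itgb1; 0.432% of all genes). No member was called higher by edgeR or DESeq2 at any concentration, against 0.848%, 1.01% and 0.409% of all genes at low, mid and high AHA. The nearest was Itgb3 at mid AHA, with 0.38 ± 0.14 (SE, adjusted p = 0.129), and 0.25 without stiff, mid AHA replicate 2 (adjusted p = 0.555). For Itgb3 at mid AHA all 3 soft libraries lay above all 3 stiff ones. Itgb5 separated the same way at mid AHA with an adjusted p of 0.662, and the share over all genes was not computed. In the lower direction DESeq2 made the same number of calls, 4, 3 and 2. Over all 13438 genes it called 320, 266 and 69 in either direction. Unadjusted p-values under 0.05 were reached by 6, 6 and 5 members, and by 1763, 1827 and 1405 of the 13438 genes tested with edgeR.

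Itga3 was lower by a log2 fold change of -0.67 ± 0.045 (SE) at low, -0.52 ± 0.044 at mid and -0.53 ± 0.050 at high AHA, with adjusted p-values of 2.40e-27, 2.98e-19 and 8.47e-16. Itgb1 gave -0.36 ± 0.044, -0.21 ± 0.044 and -0.20 ± 0.049 (adjusted p = 1.38e-10, 0.000622 and 0.0134). Both were thus called at every concentration. Itgav gave -0.39 ± 0.071 at low AHA (adjusted p = 3.42e-05), -0.23 ± 0.071 at mid AHA (0.0518) and -0.055 ± 0.078 at high AHA (0.890). Leaving out soft, high AHA replicate 3 or 2 moved the high AHA value to -0.11 or -0.012, uncalled in both fits. For Itga5 the values were -0.24 ± 0.062 (adjusted p = 0.00733), -0.11 ± 0.062 (0.427) and -0.18 ± 0.068 (0.265). Its mid AHA value was -0.17 without soft, mid AHA replicate 3 and -0.051 without soft, mid AHA replicate 1, and was called in neither fit. The low AHA call of Itga5 was lost without soft, low AHA replicate 1 (-0.17, adjusted p = 0.266). Itgb4 passed at mid AHA only, with -0.41 ± 0.11 (adjusted p = 0.0151), and gave -0.32 ± 0.11 at low AHA (0.113) and -0.25 ± 0.12 at high AHA (0.444). The mid AHA call was lost without soft, mid AHA replicate 2 (-0.37, adjusted p = 0.0975) or stiff, mid AHA replicate 3 (-0.36, 0.125). Itga6 stood at -0.16, -0.15 and -0.16 and passed at none of the 3.

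An F test of whether the soft minus stiff difference varied with AHA called 0 of the 10 members by edgeR and 0 by DESeq2, with 0.0298% of all genes called by edgeR. At an unadjusted p under 0.05 there were 3 members, and the number of all genes at that threshold is not given here. Itgav had the lowest adjusted p (0.563), followed by Itgb1 (0.723) and Itga3 (0.736). A call at one concentration and not at another is therefore not shown to be a difference between them. At high AHA the calls depended on the soft libraries used. With all 3 of them 4 members were called, Itga5 (adjusted p = 0.0417) and Itga6 (adjusted p = 0.0199) being added, while calls over all genes rose from 113 of 13438 to 341 of 13223. Without stiff, high AHA replicate 3, Itgb1 was not called at high AHA (log2 fold change -0.19, adjusted p = 0.0985). In that fit 1 member was called, and calls over all genes fell to 51 of 13398. The high AHA log2 fold change of Itgb1 was -0.22 without soft, high AHA replicate 2 and -0.19 without replicate 3. With either soft replicate left out, the soft, high AHA group held 1 library, which was assumed to vary like the other groups, so only the effect size is given.

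**Figure D3:**
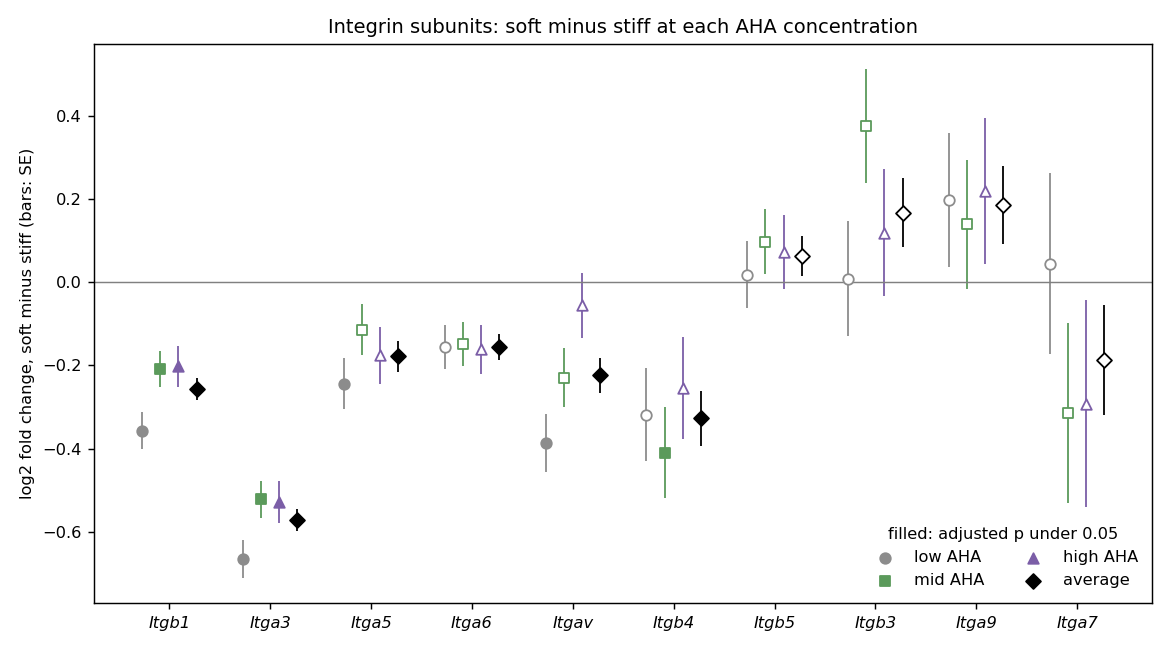
Log2 fold change, soft minus stiff, of each integrin subunit at low, mid and high AHA and on average (bars are SE, filled symbols have an adjusted p under 0.05). Itga3 and Itgb1 are filled at all 3 concentrations, and Itgav is filled at low AHA, at -0.39, and open at mid and high AHA.

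AHA concentrations were compared at one stiffness to ask whether tethering alone moved these receptors. Of the 10 members, edgeR called 0 in each of the 6 comparisons and DESeq2 also 0. At an unadjusted p under 0.05 there were 0, 1 and 2 members on soft substrates (mid against low, high against low, high against mid) and 3, 1 and 2 on stiff substrates. Of the 13438 genes tested, 820, 1144 and 915 passed that threshold on soft and 671, 812 and 783 on stiff substrates, in the same order. Over all genes, soft substrates gave 0.253% called for high against low AHA, 0.067% for high against mid and 0.0% for mid against low. Stiff substrates gave 0.00744% for high against low, 0.00744% for high against mid and 0.0% for mid against low.

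Itgb1 came closest. On soft substrates it was 356 ± 12.7 CPM (SD, n = 3) at low, 373 ± 22.7 (SD, n = 3) at mid and 406 ± 3.76 (SD, n = 2) at high AHA. High minus low gave a log2 fold change of 0.19 with a 95% interval of 0.091 to 0.28 and an adjusted p of 0.0638, and over the alternatives the adjusted p ran from 0.0534 to 0.474. With the left-out library added the difference was 0.14 (adjusted p = 0.151), and with replicate 2 or 3 left out in its place 0.12 (0.433) or 0.13 (0.323). On stiff substrates the same comparison gave 0.033 (interval -0.053 to 0.12). For Itga5, the fibronectin receptor chain, high minus low AHA was 0.072 (interval -0.064 to 0.21) on soft and 0.0044 (interval -0.12 to 0.12) on stiff substrates. Itgav on stiff substrates was 126 ± 10.1 CPM (SD, n = 3) at low against 111 ± 3.64 at high AHA, a log2 difference of -0.19 (interval -0.33 to -0.054, adjusted p = 0.595). Across AHA groups the group means of Itga3 spanned 6.67% on soft and 8.08% on stiff substrates. Over the 10 members these spans ran from 3.79% (Itga6) to 29.4% (Itga7) on soft substrates. On stiff substrates they ran from 3.68% (Itgb5) to 14.15% (Itgav).

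Because 1 library holds all subunits, their length-scaled levels were also set against Itgb1 within each library, as a description without a test. The ratio of Itga3 to Itgb1 was 0.655 ± 0.025 (SD, n = 8) in soft libraries and 0.812 ± 0.031 (SD, n = 9) in stiff libraries, and the ranges, 0.608 to 0.690 and 0.767 to 0.854, did not overlap. Relative to the chain it pairs with, Itga3 was thus lower on soft substrates. The ratio of Itgb5 to Itgb1 was 0.248 ± 0.021 on soft and 0.197 ± 0.015 on stiff substrates, with its lowest soft value, 0.215, just above the highest stiff value of 0.2148. That of Itgb3 to Itgb1 was 0.0522 ± 0.0070 and 0.0385 ± 0.0040, with overlapping ranges. The ratios of Itga5 and Itgav to Itgb1 were 0.319 ± 0.017 against 0.302 ± 0.015 and 0.0997 ± 0.0054 against 0.0975 ± 0.0072, and both overlapped between soft and stiff. Itga3 made up 47.9% ± 0.849 of the summed alpha members on soft and 55.0% ± 0.785 on stiff substrates. Itgb1 made up 73.8% ± 1.40 of the summed beta members on soft and 77.4% ± 1.21 on stiff substrates, and Itgb5 18.3% ± 1.23 and 15.2% ± 0.909.

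**Figure D4:**
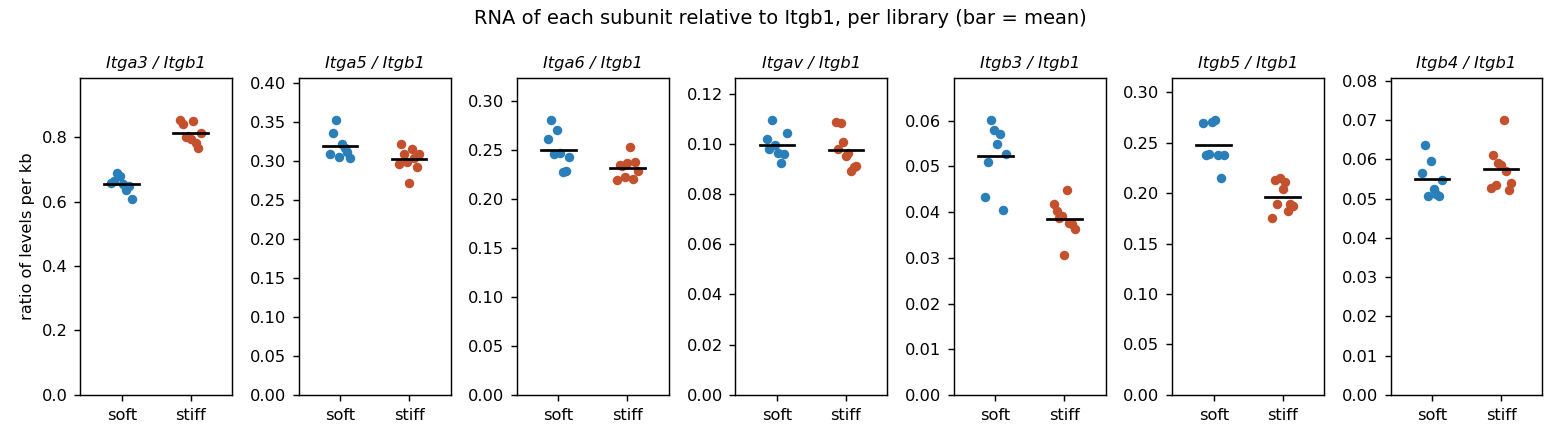
Ratio of the length-scaled RNA level of 7 integrin subunits to Itgb1 in each library, soft (blue) and stiff (red), with bars at the means (each axis starts at 0). Itga3 to Itgb1 lies between 0.608 and 0.690 on soft and between 0.767 and 0.854 on stiff substrates, while Itgav to Itgb1 overlaps.

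Genes around the receptors were read from lists taken from general knowledge, in the same average soft minus stiff comparison. Of the 17 integrin subunits outside the members, 11 were tested and 0 were called by edgeR or DESeq2, 0 also having an unadjusted p under 0.05, with log2 fold changes from -0.32 (Itgb8) to 0.27 (Itgb2) and a median of -0.058. Of 25 tested matrix ligands, 8 were lower and 2 higher on soft substrates, beside 4.82% lower and 3.77% higher over all genes. At an unadjusted p under 0.05 there were 12 lower and 2 higher, and DESeq2 called 7 lower and 2 higher. Thbs1, which encodes thrombospondin, was lower at -0.52 ± 0.050 (SE; adjusted p = 6.56e-06), and the laminin chain Lama4 at -0.52 ± 0.18 (0.0476, not called in 13 of 25 fits). Col4a1, a basement membrane collagen chain, was lower at -0.19 ± 0.032 (6.84e-06). The 2 higher genes were Lama1 (0.33) and Spp1 (0.21), which encodes osteopontin, a ligand of Itgav and Itga9. Fn1, the fibronectin gene, was 1070 ± 44.9 CPM (SD, n = 8) on soft with a log2 fold change of 0.0084 (adjusted p = 0.889). Itgb8, Itgb2, Lama1, Spp1 and Fn1 were named after their values were seen.

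The counts of the following lists stand beside the same 4.82% lower and 3.77% higher over all genes. Of 14 tested genes that act on the beta tail, 6 were lower and 0 higher on soft substrates (DESeq2 called 5 and 0, and 1 gene was higher at an unadjusted p under 0.05). The largest were Fermt1, a kindlin, at -0.52 ± 0.10 (adjusted p = 4.85e-05), Flna, a filamin that links integrin tails to actin, at -0.25 ± 0.021 (2.70e-20) and Tln1, the talin that activates integrins, at -0.24 ± 0.026 (8.55e-14). Of 17 kinases, scaffolds and adaptors, 7 were lower and 0 higher (DESeq2 also 7 and 0, with 1 higher at an unadjusted p under 0.05), led by Parva at -0.39 ± 0.062 (2.41e-07), Zyx at -0.39 ± 0.037 (1.75e-14) and Bcar1 at -0.24 ± 0.030 (1.63e-10). Ilk, whose product binds parvin, had 0 to 11 counts and was not tested, and 89.7% of its exon length lies opposite exons of Rrp8 and Taf10. Among 5 tested hemidesmosome partners of Itga6 and Itgb4, 3 were lower, the keratins Krt8 (-0.36 ± 0.027, adjusted p = 1.34e-23) and Krt18 (-0.32 ± 0.025, 3.92e-22) and the linker Plec (-0.23 ± 0.023, 1.97e-13). Tetraspanins and other lateral partners gave 1 lower (Cd151, a partner of Itga3 and Itga6, -0.21, adjusted p = 0.00618) and 1 higher (Sdc4, 0.14, 0.0285, not called in 5 of 25 fits) of 15. Of 15 genes of integrin endocytosis and recycling 1 was called, Rcc2 at 0.078 (0.0288, not called in 8 of 25 fits). The counts of these last 2 lists were near the shares over all genes. The list medians were -0.11 for ligands, -0.089 for beta-tail genes, -0.060 for kinases and scaffolds, -0.23 for hemidesmosome partners, -0.038 for tetraspanins and 0.061 for recycling genes, against 0.00105 over all genes.

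**Figure D5:**
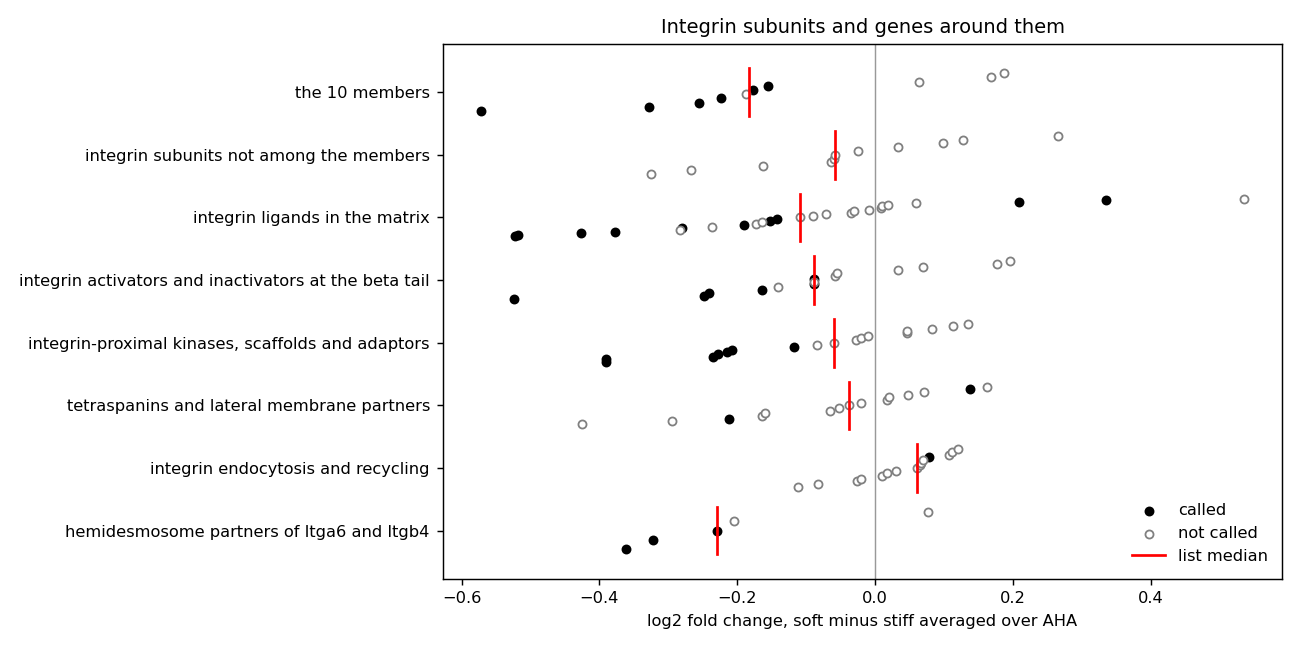
Log2 fold change, soft minus stiff averaged over AHA, of the 10 integrin subunits and of each list around them, where a filled point is a gene called by edgeR and a red line the list median. The members' median is -0.18, and the recycling list, at 0.061, lies on the other side of 0.

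On soft substrates, 3 list genes were called for high against low AHA, 1 each of 25 matrix ligands, 17 kinases, scaffolds and adaptors and 5 hemidesmosome partners, beside 0.253% of all genes. Zyx was higher at high AHA by 0.33 ± 0.070 (SE; adjusted p = 0.00701), Col4a1 by 0.28 ± 0.059 (0.00701) and Krt18 by 0.24 ± 0.046 (0.00183). With the left-out soft, high AHA library added, Zyx was not called (0.23, adjusted p = 0.330), while Krt18 (0.18, 0.0399) and Col4a1 (0.28, 0.00152) were. With replicate 2 left out in its place, Zyx gave 0.16 (adjusted p = 0.594) and Krt18 0.12 (0.352), and with replicate 3 left out in its place 0.21 (0.508) and 0.18 (0.106), so neither was called. Zyx was not called by DESeq2 (0.33, adjusted p = 0.0606). Whether these genes differ from the members in this respect was not tested. Of 8 embryonic stem cell markers, 6 were called higher on soft substrates in the average comparison, the largest being Nanog (0.38), Esrrb (0.35) and Sox2 (0.19). In that comparison 3.77% of all genes were called higher and 4.82% lower. The remaining pair, Pou5f1 (0.033) and Tdgf1 (-0.069), were not called and were named after their values were seen. Of 5 tested trophoblast markers 1 was lower, Hand1 (-0.30), and of 4 tested fibroblast markers 1, Col1a1 (-0.49). No primitive endoderm (7 tested) or neural and mesoderm (4 tested) marker was called by edgeR or DESeq2, with 0 and 1 at an unadjusted p under 0.05.

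For the fibronectin-binding chains, genes with the most similar pattern over the 6 substrates were sought as the smallest root mean square difference of centred group mean log2 CPM among 9217 genes of at least 10 CPM. The closest to Itgb1 were Dusp5 (0.0253), Bcar1 (0.0265) and Rras2 (0.0293), against a median of 0.160 over all genes. Itga5 was nearest to Dph3 (0.0220), Dusp3 (0.0240) and Pgrmc1 (0.0296), with a median of 0.130. Itgav was nearest to Sertad2 (0.0261), Cgnl1 (0.0352) and Zmiz1 (0.0379), with a median of 0.156. The 3 smallest values lie below the median by construction. A gene flat over the 6 substrates would score 0.144 for Itgb1, 0.107 for Itga5 and 0.138 for Itgav. The points share libraries, and the likeness is a description.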

How the data were processed

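RNA was sequenced from E14 mESCs on 6 substrates, 18 libraries in all. Per the submitters' processing notes and methods, the authors trimmed reads with Trim Galore 0.4.4, aligned them with GSNAP to mm10 and counted them with HTSeq. Raw counts of each gene were deposited, unnormalised, and the strand setting was not given in the sources used here. HTSeq summary lines (61.5 to 64.0% of each column) entered neither library sizes nor tests. Names and coordinates came from GENCODE M21 (GRCm38), which named 45143 of 46078 genes.

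Tests covered protein-coding genes that passed filterByExpr with a minimum count of 10, using TMM scaling and edgeR 4.0.16 (R 4.3.3, robust quasi-likelihood fit, 1 coefficient per substrate). The library with an ERCC share over 1.5 times the median was left out, which left 17. Genes were called at a Benjamini-Hochberg adjusted p under 0.05 per contrast. The common dispersion was 0.00286, a biological coefficient of variation of 5.35%. SEs derive from the F statistic. The fit was tested on simulated data. Alternatives were RLE size factors, DESeq2 1.42.0, genes of at least 2 counts, all annotated genes, all 18 libraries, only the groups compared, and leaving out each library. Leaving out another soft, high AHA library instead was chosen after seeing the data. Replicates of a group differed beyond counting noise (chi-square per degree of freedom 1.82 to 3.07 over 18 pairs).

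The members and lists were chosen with earlier results of these data known. The named genes were the 10 members, the 3 largest called genes of each list, list genes called between AHA concentrations or in the interaction, and the 3 nearest patterns of Itga5, Itgav and Itgb1. A gene that this rule names is not reported here.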

Additional observations from a re-analysis of the deposited data

Results flagged for a closer look

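Each member's CPM was checked in the soft and in the stiff libraries for a library far from the others, 20 groups in all, by the gap rule of Dixon's test, and chance alone marks about 1 in 20 groups. Each group spans the 3 AHA concentrations. A pair was marked. Itga7 in soft, low AHA replicate 1 read 13.7 CPM against 7.34 to 9.97 in the other 7 soft libraries, and its gap to the nearest was 0.583 of the whole range. The soft library left out of the fit, soft, high AHA replicate 1, read 12.2 CPM, above those 7 as well, so the high value did not stand alone among the soft samples. Itgb3 in stiff, mid AHA replicate 2 read 19.5 CPM against 24.8 to 28.4 in the other 8 stiff libraries, a gap of 0.591 of the range. Both genes have low counts (32 to 70 and 104 to 201 per library).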

How the results depend on the processing

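In the average soft minus stiff comparison, the 6 calls and the 4 members not called stayed so under every alternative run, including each library left out. The alternative with only the groups compared was not run for this average or for the interaction, which use all 6 groups. At high AHA the number called was 4 with all 18 libraries (341 of 13223 genes called, against 113 of 13438), and 4 and 3 with soft, high AHA replicate 2 or 3 left out in place of replicate 1 (384 of 13442 and 257 of 13470 genes, chosen after seeing the data). With 1 library left out and at least 2 kept per group, 1 to 2 members were called. Calls over all genes then ran from 51 of 13398 to 117 of 13393. Leaving out 1 library, Itga6 at low AHA was called without soft, low AHA replicate 2 (adjusted p = 0.0278). Itgav at mid AHA was called without soft, high AHA replicate 2 or 3, stiff, low AHA replicate 2 or stiff, mid AHA replicate 3 (adjusted p = 0.0465 to 0.0490). Uncalled log2 fold changes turned sign: with soft, high AHA replicate 3 left out in place of replicate 1, Itga7 at high AHA was 0.060, and with replicate 2 left out instead Itgav at high AHA was 0.015. Over libraries left out, Itga7 at low AHA ran from -0.18 to 0.18, Itgb3 at low AHA from -0.14 to 0.14, Itgb5 at low AHA from -0.024 to 0.074 and Itgb3 at high AHA from -0.062 to 0.29. The cause was not tested. Length-scaled levels relative to all gene counts, a larger total by construction, were 70.9 for Itgb1, 52.35 for Itga3, 21.9 for Itga5, 17.0 for Itga6, 15.5 for Itgb5, 7.03 for Itgav, 3.99 for Itgb4, 3.17 for Itgb3, 1.79 for Itga9 and 0.863 for Itga7, in the same order. No paired analysis was possible because the labels give no replicate numbers, and those used here only name the libraries of a group in listed order. Itga7, Itga9 and Itgb3 had the lowest counts of the members and the largest SEs in the average comparison.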
